A study of Mus musculus with 12 samples.

Results

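Bulk RNA sequencing of mouse trigeminal ganglia was used to follow 7 genes, namely Dcn, Postn, Fn1, Timp2, Colec12, Olfml1 and Pdgfd, most of them known as products of fibroblasts that build, bind or remodel extracellular matrix. They are 7 of 9969 genes that could be named by position in the deposited counts, and all 7 passed the filter on low counts, as did 4771 named genes in all. The genes were chosen by their measured changes, with earlier fits of these same libraries known, above all their fold changes with stimulation in wounded and in unwounded mice. Levels and fold changes under stimulation are therefore given below as a description, without p-values.

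The ganglia, which hold the cell bodies of the sensory neurons of the cornea, were taken from C57BL/6J females at 8 weeks of age and fall into 4 groups of 3 libraries. The injury + ES group had a 1.5 mm keratectomy, an abrasion of the epithelium and the outer stroma of the cornea, in an eye taken at random, and received electrical stimulation (ES) for 2 weeks. The injury group was taken 2 weeks after the same wound without stimulation, the ES only group was stimulated without a wound, and the control group was left untreated. Stimulation was a 300 µA, 20 Hz biphasic current through the skin of the orbit for 4 minutes daily over 14 days under isoflurane, whereas the wounds were made under ketamine and xylazine with an analgesic afterwards, so anaesthesia and treatment cannot be told apart. No library used here is labelled as sham stimulated, the labels leave out the number of animals and the side of the ganglion behind each library, and p-values then measure only the spread between these libraries. The series' title refers to diabetic neuropathy, and no sample label names a diabetic mouse.

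Fibroblasts of nerves, ganglia and their coverings lay down collagen fibrils, proteoglycans and adhesive glycoproteins, and wounding of a tissue is known to raise several of these. Decorin (Dcn) is a small leucine-rich proteoglycan that binds collagen fibrils and TGF-beta. Fibronectin (Fn1) and periostin (Postn) are adhesive glycoproteins that cells bind through integrins, and periostin is typical of connective tissue under repair. Timp2 inhibits matrix metalloproteases, Colec12 is a collectin and scavenger receptor of the cell surface, Pdgfd is a ligand of the PDGF receptor beta, and Olfml1 is a secreted protein of the olfactomedin family.

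Each gene was read through the counted interval that lies over its exons on GRCm38, because the intervals of the deposited tables carried symbols that belong to another build. Colec12 (chromosome 18, 9707595 to 9882644) and Pdgfd (chromosome 9, 6168584 to 6378850) were counted over 100% of their exon bases, 8725 and 3154 bp. Of Olfml1 (chromosome 7, 107567446 to 107591094), 947 bp or 56.2% of the exon bases were counted, in 1 run at the 3′ end.

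The other four were read through smaller parts. Of Dcn (chromosome 10, 97479609 to 97518143) 1249 bp were counted, and of Fn1 (chromosome 1, 71585520 to 71653200, minus strand) 1835 bp, of which 234 and 1113 bp are coding. These were 21.4% and 15.7% of the exon bases. The fewest bases were counted of Timp2 (chromosome 11, 118301069 to 118355740, minus strand), with 659 bp of non-coding exon or 16.9% of its exon bases, and of Postn (chromosome 3, 54361109 to 54391037), with 577 bp or 6.63% of its exon bases. Counting ignored strand and let a read count for every interval it touched, so reads of a gene on the opposite strand at these places would be included.

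Promoter windows are shown because 6 of the 7 genes had lower means, and Timp2 a higher mean, in both stimulated groups than in the controls. RefSeq windows on GRCm38.p6 matched 4 of the symbols, and for these the 250 bases before the RefSeq start are printed 5′ to 3′ on the gene's strand. They are chr3:54360857-54361106 (plus strand, for Postn the nearer of 2 windows to the GENCODE start), chr9:6168236-6168485 (plus strand, Pdgfd), chr7:107567183-107567432 (plus strand, Olfml1) and chr11:118355412-118355661 (minus strand, Timp2). Capitals mark matches, on either strand, to the TATA box (TATAAA), the CCAAT box (CCAAT), the GC box (GGGCGG), the AP-1 site (TGANTCA) or the Smad box (CAGAC).
Postn: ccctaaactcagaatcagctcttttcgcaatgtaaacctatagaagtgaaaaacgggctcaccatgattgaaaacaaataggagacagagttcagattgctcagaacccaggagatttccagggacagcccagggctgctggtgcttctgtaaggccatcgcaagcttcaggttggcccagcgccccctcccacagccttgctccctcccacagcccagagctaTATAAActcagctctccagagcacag
Pdgfd: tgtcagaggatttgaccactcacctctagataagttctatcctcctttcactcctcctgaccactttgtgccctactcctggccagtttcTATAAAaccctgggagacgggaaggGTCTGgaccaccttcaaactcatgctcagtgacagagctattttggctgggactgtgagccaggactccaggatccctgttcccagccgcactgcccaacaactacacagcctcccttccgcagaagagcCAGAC
Olfml1: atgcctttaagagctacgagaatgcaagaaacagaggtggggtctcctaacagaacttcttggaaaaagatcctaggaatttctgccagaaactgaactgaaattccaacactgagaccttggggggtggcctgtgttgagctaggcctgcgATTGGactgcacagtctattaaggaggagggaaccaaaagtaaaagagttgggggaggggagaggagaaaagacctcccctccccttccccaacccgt
Timp2: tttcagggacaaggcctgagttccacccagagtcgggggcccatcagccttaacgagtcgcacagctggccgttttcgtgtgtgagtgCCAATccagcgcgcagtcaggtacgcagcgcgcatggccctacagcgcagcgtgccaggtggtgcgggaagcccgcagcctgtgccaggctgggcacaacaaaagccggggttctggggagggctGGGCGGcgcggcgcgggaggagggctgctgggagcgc

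The Postn window held TATAAA 26 bases before the start and none of the other motifs. The other Postn window, at chr3:54359017-54359266, held no TATAAA but the Smad box at 191 bases, with 40.4% GC. Pdgfd held TATAAA 160 bases before the start and CAGAC, the Smad box, on the minus strand at 135 bases and on the plus strand at 5 bases. Olfml1 held CCAAT on the minus strand, read as ATTGG, at 98 bases. The Timp2 window was GC-rich, with 68.0% GC and 21 CpG dinucleotides, against 52.0% and 4 in Postn, and 53.6% and 3 in Pdgfd, and it held CCAAT at 162 bases and GGGCGG, the GC box, at 37 bases. By GENCODE, where Timp2 starts at 118355740 on the minus strand, this window lies within the gene and not before it. Among 32851 mouse windows of the same length, 12.4% held TATAAA, 33.9% the CCAAT box, 32.7% the GC box, 6.75% the AP-1 site and 42.2% the Smad box, and the median GC content was 52.4%. These matches are letters in a window and not measured binding sites.

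Counted reads ran from 7952798 to 10751547 per library, and levels are given as CPM, counts scaled to library size after TMM normalisation. Per kilobase of counted exon, the order of the genes in control ganglia was Dcn, at 2364 ± 419 CPM per kb (SD, n = 3), then Timp2 at 1191 ± 171, Olfml1 at 69.7 ± 7.65, Fn1 at 38.0 ± 11.3, Postn at 35.4 ± 15.9, Pdgfd at 16.9 ± 2.68 and Colec12 at 13.5 ± 1.71. In these counted parts Dcn and Timp2 stood far above the others, while Fn1 and Postn did not differ beyond their spread. The order is one of counted parts and not of whole genes. In controls a separate Fn1 stretch of 1256 bp averaged 12.9 CPM, against 69.8 CPM over the 1835 bp used here. A separate Olfml1 stretch of 449 bp averaged 13.5 CPM, against 66.0 CPM over the 947 bp used here. Postn rested on the fewest reads, 162 over the ES only group and 536 over the control group.

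In mice stimulated without a wound, 6 of the 7 genes had lower means than in controls and Timp2 a higher one. Dcn had 873, 802 and 927 CPM in the ES only libraries, against 2659, 3557 and 2641 CPM in the control libraries. The groups lay far apart, and the log2 fold change was −1.77 ± 0.17 (SE), or 3.40-fold lower. Postn had 6.26, 4.19 and 5.57 CPM in ES only libraries, against 21.8, 10.6 and 28.8 CPM in control libraries, and the fold change was −1.93 ± 0.33. All 3 stimulated libraries were below the lowest control, although control replicate 2 was well below the other two controls.

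Pdgfd had 12.6, 17.4 and 16.4 CPM in ES only libraries, against 60.6, 44.1 and 55.5 CPM in controls, a log2 fold change of −1.78 ± 0.21. Colec12 had 37.8, 50.3 and 48.6 CPM in ES only libraries, against 131, 121 and 102 CPM in controls, a fold change of −1.37 ± 0.16. For both genes every stimulated library was below every control. The fold change of Olfml1 was smaller, −0.60 ± 0.13, with 41.1, 43.8 and 45.6 CPM in ES only libraries, against 73.3, 65.9 and 58.8 CPM in controls. Fn1 had 26.9, 58.2 and 48.6 CPM in ES only libraries, against 89.5, 71.8 and 48.0 CPM in controls. Its groups overlapped, and its fold change of −0.64 ± 0.29 did not pass the call at an adjusted p under 0.05, although it did without ES only replicate 2 (−0.94).

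Timp2 went the other way. It had 1621, 1530 and 1497 CPM in ES only libraries, against 737, 913 and 705 CPM in controls, a log2 fold change of 0.98 ± 0.19. Every stimulated library was above every control. In this comparison 5 of the 7 genes were called lower and 1 higher, and of all 13053 intervals tested 29.8% were called, 11.7% lower and 18.2% higher. The groups did not overlap for 6 of the 7 genes, and for all intervals this held for 21.0% lower and 26.1% higher. Nothing is read from these counts, because this contrast entered the choice of the genes. The median log2 fold change was −1.37 over the 7 genes and 0.03 over all intervals. Olfml1 had the smallest fold change of the called genes, −0.60 ± 0.13, while Fn1, at −0.64 with a larger SE of 0.29, was not called.

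In wounded mice, stimulation went with lower levels of 5 of the 7 genes. Fn1 had 43.4, 75.8 and 42.3 CPM in injury + ES libraries, against 179, 123 and 128 CPM in injury libraries, a log2 fold change of −1.41 ± 0.29 or 2.66-fold lower. Colec12 had 68.6, 89.6 and 63.3 CPM in injury + ES libraries, against 166, 160 and 154 CPM in injury libraries (−1.12 ± 0.16). Neither gene had overlapping groups. Olfml1 was the least variable of the 7 in the injury + ES group, with 46.1, 45.8 and 45.4 CPM in injury + ES libraries, against 93.2, 84.7 and 88.6 CPM in injury libraries (−0.96 ± 0.13).

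Dcn had 1853, 1722 and 1944 CPM in injury + ES libraries, against 2945, 3175 and 3553 CPM in injury libraries, a log2 fold change of −0.81 ± 0.16. Pdgfd had 24.8, 42.1 and 27.3 CPM in injury + ES libraries, against 64.9, 52.8 and 49.98 CPM in injury libraries. Its groups did not overlap either, but its fold change of −0.83 ± 0.20 lay just outside the call, while that of Dcn was called. Postn and Timp2 had overlapping groups. Postn had 9.76, 16.6 and 12.3 CPM in injury + ES libraries, against 12.2, 14.8 and 8.75 CPM in injury libraries (0.11 ± 0.32). Timp2 had 1819, 1054 and 1665 CPM in injury + ES libraries, against 1272, 1315 and 1321 CPM in injury libraries (0.22 ± 0.18), and the overlap came from injury + ES replicate 2.

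Here 4 of the 7 genes were called, all lower, and 1.54% of all intervals were called, 1.50% lower and 0.0383% higher. Groups without overlap were seen for 5 of the 7 genes, all lower, and for 10.1% of intervals lower and 5.15% higher. Again nothing is read from that count, since this contrast too entered the choice. Without injury + ES replicate 3 none of the 7 was called by edgeR, with 5 at an unadjusted p under 0.05, and 5 of all intervals were called in place of 201, while DESeq2 on all 12 libraries called 5 of the 7. Without injury replicate 1 it was 2 of the 7. The Dcn call was also lost without injury replicate 2 or 3 or ES only replicate 1, and the Fn1 call without injury + ES replicate 1, while Pdgfd was called without injury + ES replicate 2. The direction of the 5 lower genes was the same in all 12 fits that left out 1 library each.

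Injury + ES set against untreated controls gave the net difference. Timp2 averaged 1513 ± 405 CPM in injury + ES ganglia and 785 ± 112 CPM in control ganglia (SD, n = 3 each), a log2 fold change of 0.95 ± 0.19. The 4 genes called lower were Pdgfd (−0.76 ± 0.20), Dcn (−0.68 ± 0.16), Colec12 (−0.68 ± 0.16) and Olfml1 (−0.53 ± 0.13). Postn (−0.66 ± 0.32) and Fn1 (−0.37 ± 0.28) had overlapping groups and were not called. The 5 calls stand beside 17.2% of all intervals called, 4.93% lower and 12.3% higher, and the 5 pairs of groups without overlap beside 15.2% of intervals lower and 17.6% higher. Without injury + ES replicate 3 none of the 7 was called by edgeR, with 5 at an unadjusted p under 0.05, and without control replicate 1 it was 2, while DESeq2 on all libraries called 5. With the GC content and length trend removed 2 were called, Timp2 (0.84) and Olfml1 (−0.52), and Dcn (−0.11), Colec12 (−0.06) and Pdgfd (−0.40) were not.

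**Figure D1:**
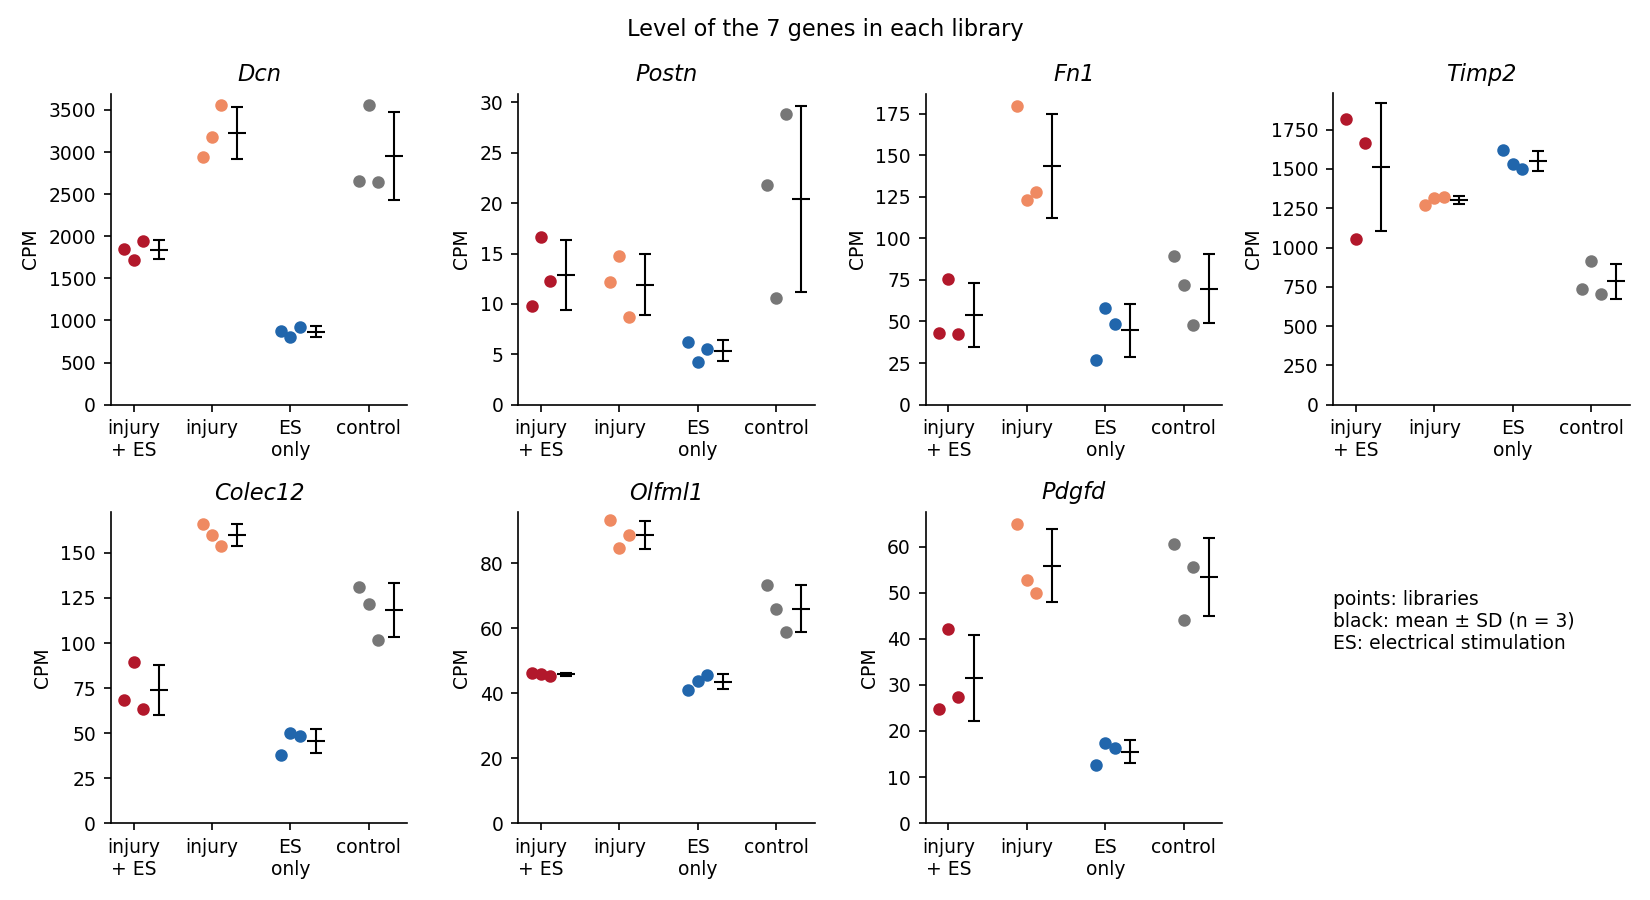
Level of each of the 7 genes in CPM (linear axes from 0) in the 3 libraries of the injury + ES, injury, ES only and control groups; points are libraries and black marks the mean ± SD. Dcn, Postn, Colec12 and Pdgfd are lowest in the ES only group without overlap, Fn1 is highest in the injury group, and Timp2 is lowest in the control group.

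With the wound alone, 4 of the 7 genes were called higher than in controls. Fn1 averaged 143 ± 31.2 CPM in injured ganglia and 69.8 ± 20.8 CPM in control ganglia (SD, n = 3 each), a log2 fold change of 1.04 ± 0.28 (adjusted p = 0.0119, edgeR quasi-likelihood test, Benjamini-Hochberg over 13053 intervals), and it was higher in 3 of 3 injured libraries than in any control. Timp2 averaged 1302 ± 26.8 CPM in injured ganglia and 785 ± 112 CPM in controls (0.73 ± 0.18, adjusted p = 0.00764). Smaller rises were those of Colec12, at 160 ± 6.08 CPM in injured ganglia and 118 ± 15.0 CPM in controls (0.44 ± 0.16, adjusted p = 0.0441), and of Olfml1, at 88.8 ± 4.26 CPM in injured ganglia and 66.0 ± 7.24 CPM in controls (0.43 ± 0.13, adjusted p = 0.0193). None of these 4 genes had overlapping groups. The comparison shares its libraries with the stimulation contrasts that entered the choice of the genes. Its p-values and calls are therefore not independent of that choice.

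For Dcn, Pdgfd and Postn the difference between injured and control ganglia lay within the spread between libraries. Dcn averaged 3224 ± 307 CPM in injured ganglia and 2952 ± 524 CPM in controls (0.13 ± 0.16, adjusted p = 0.582). Pdgfd averaged 55.9 ± 7.92 CPM in injured ganglia and 53.4 ± 8.45 CPM in controls (0.07 ± 0.20, adjusted p = 0.831), and Postn 11.9 ± 3.02 CPM in injured ganglia and 20.4 ± 9.20 CPM in controls (−0.77 ± 0.32, adjusted p = 0.0749). Postn was called lower without control replicate 2 (−1.08), injury + ES replicate 2 (−0.86) or ES only replicate 3 (−0.86).

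The 4 calls, all higher, stand beside 31.0% of all intervals called, 19.3% higher and 11.7% lower. Nothing is read from that count, because the libraries entered the choice of the genes. Groups without overlap were seen for 28.8% of intervals higher and 23.8% lower. The 7 genes had a median log2 fold change of 0.43, against 0.03 over all intervals. The Timp2 call held in all 12 fits that left out 1 library each, but the Fn1 call was lost without control replicate 3 (0.83, adjusted p = 0.0653) and without injury replicate 1 (0.85, adjusted p = 0.0579). The calls of Olfml1 and Colec12 were lost in 8 and 10 of those 12 fits, with adjusted p reaching 0.0904 and 0.176. Both held without injury + ES replicate 1 or 2, and that of Olfml1 also without control replicate 1 or injury replicate 2. DESeq2 called 3 of the 7 and lost Colec12 (adjusted p = 0.0624). In edgeR, a replicate block also lost Colec12 (adjusted p = 0.0544), and summing all intervals over only that gene lost Olfml1 (adjusted p = 0.0615). Without the filter edgeR lost Colec12 (adjusted p = 0.122) and Olfml1 (adjusted p = 0.173) and called Postn lower. With the trend over GC content and transcript length taken out, the Timp2 rise was 0.40 (adjusted p = 0.173) and that of Olfml1 0.21 (adjusted p = 0.307).

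Among stimulated mice only, the wound went with higher Dcn, Postn, Colec12 and Pdgfd. Both groups entered the choice of the genes, so this too is given as a description, without p-values. Dcn averaged 1840 ± 112 CPM in injury + ES ganglia and 867 ± 63.0 CPM in ES only ganglia (SD, n = 3 each), a log2 fold change of 1.08 ± 0.16. Postn averaged 12.9 ± 3.47 CPM in injury + ES ganglia and 5.34 ± 1.06 CPM in ES only ganglia (1.27 ± 0.34). Pdgfd averaged 31.4 ± 9.35 CPM in injury + ES ganglia and 15.5 ± 2.52 CPM in ES only ganglia (1.02 ± 0.21). Colec12 averaged 73.8 ± 13.9 CPM in injury + ES ganglia and 45.6 ± 6.78 CPM in ES only ganglia (0.70 ± 0.16). These 4 genes were called by edgeR, and their groups did not overlap. Fn1 (0.27 ± 0.29), Olfml1 (0.07 ± 0.13) and Timp2 (−0.03 ± 0.18) were not called.

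Of all intervals 4.07% were called here, 2.21% higher and 1.85% lower, and groups did not overlap for 9.39% higher and 10.5% lower. The ES only libraries that form the base of these folds are the ones in which the genes were known to be low when they were chosen, so the 4 calls are not independent of that choice. With only these 2 groups in the fit, edgeR called none of the 7 and 0 of all intervals, with 4 of the 7 at an unadjusted p under 0.05, while DESeq2 over all groups called 4. Without ES only replicate 1 or 3, edgeR called 1 of the 7, Dcn, and without injury + ES replicate 3 it called 2. The Dcn call held in all 12 fits with 1 library left out. The Postn call was lost in 8 of those 12 fits and held without control replicate 2 or 3 or injury + ES replicate 1 or 2.

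**Figure D2:**
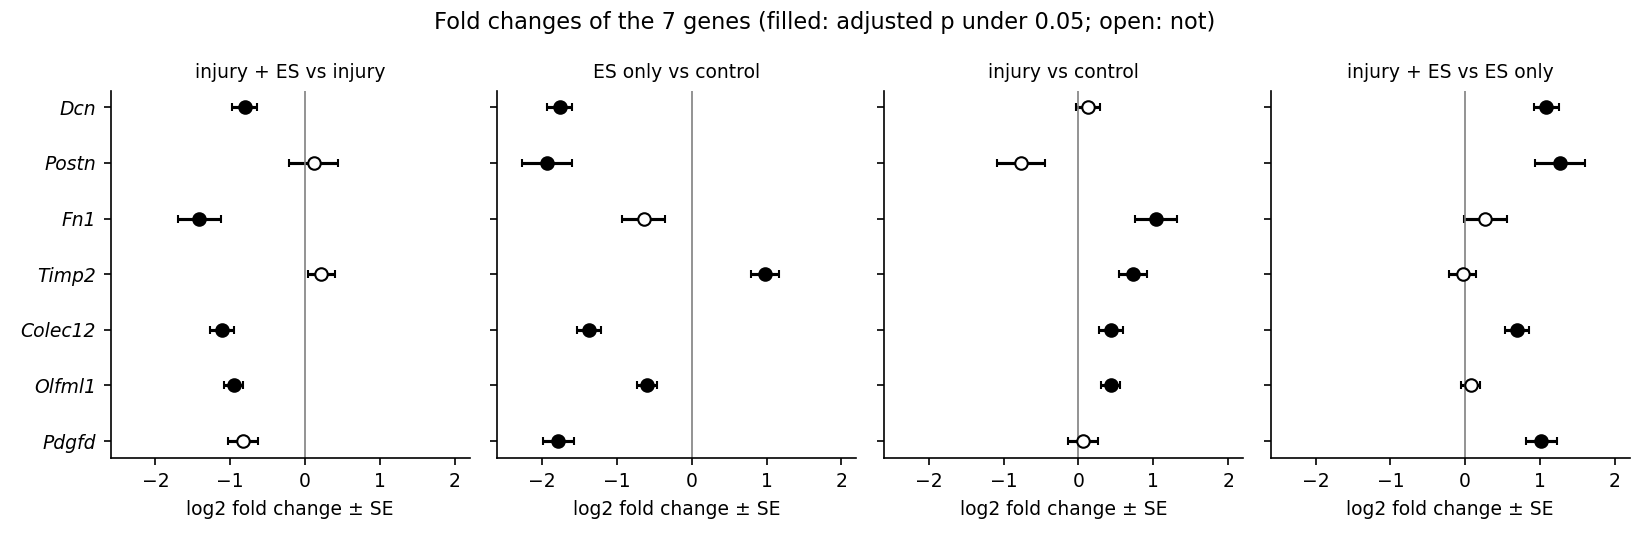
Log2 fold changes with SE of the 7 genes in 4 comparisons, for injury + ES against injury, ES only against control, injury against control and injury + ES against ES only; filled points passed an adjusted p under 0.05. The median of the 7 genes is −0.83, −1.37, 0.43 and 0.70 in these panels, and Timp2 is on the other side of 0 from Dcn, Colec12, Olfml1 and Pdgfd in the 2 panels that test stimulation.

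The effect of stimulation was set between wounded and unwounded mice by an interaction term, the change in injured minus the change in uninjured mice. It is built from both stimulation contrasts that entered the choice of the genes, so it is given as a description, without p-values. It was positive for Postn, at 2.04 ± 0.46, for Dcn, at 0.96 ± 0.23, and for Pdgfd, at 0.95 ± 0.29, since the fold changes with stimulation were nearer to 0 in wounded than in unwounded mice. For Timp2 it was negative, −0.77 ± 0.26, with a stimulation effect of 0.22 in injured and 0.98 in uninjured mice. Colec12 (0.26 ± 0.23), Olfml1 (−0.36 ± 0.18) and Fn1 (−0.77 ± 0.40) were not called.

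The other 4 were called, and stand beside 19.2% of intervals called, 6.86% with a positive and 12.3% with a negative interaction, a count from which nothing is read. The Dcn and Postn calls held in all 12 fits with 1 library left out, while that of Pdgfd was lost in 5 and that of Timp2 in 10. The Pdgfd call was lost without control replicate 1 or 3, injury replicate 2 or 3 or ES only replicate 1, and the Timp2 call held without control replicate 2 or injury + ES replicate 1. With the GC content and length trend taken out, edgeR called none of the 7, with 1 at an unadjusted p under 0.05, and DESeq2 without that correction called 4. The interactions were then 0.37 for Dcn, 1.34 for Postn, 0.41 for Pdgfd and −0.14 for Timp2.

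GC content moved with the fold changes of ES only against control over the named genes, and the 7 genes span much of that range. Among named genes with under 40% GC in the longest transcript, the median log2 fold change of ES only against control was −0.84 over 305 genes, and this band holds Postn (36.3%), Dcn (37.4%) and Pdgfd (39.9%). Between 40 and 45%, where Colec12 lies (43.1%), it was −0.55 over 968 genes. The median was −0.11 between 45 and 50% (Olfml1, 48.7%), 0.33 between 50 and 55% (Fn1, 53.5%, and Timp2, 53.7%) and 0.66 above 55%. Injury against control had a like trend, with medians of −0.44 under 40% and 0.54 above 55%. Each of the 6 genes with a lower mean was below the median of its own band, and Timp2 above that of its band. All 6 were also below the lower quartile of their bands, which was −1.21 under 40% GC, −0.87, −0.50 and −0.06 in the next 3 bands, and Timp2 was above the upper quartile of its band, 0.62. Nothing is read from these positions, because this contrast entered the choice of the genes.

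With the trend over GC content and length fitted and removed among named genes, all 6 lower genes were called lower with ES only. In that fit 358 of 4762 named genes were called. The count for the 7 genes is a description only, since the genes were chosen by this contrast. The remaining log2 fold changes were −1.14 for Postn, −1.10 for Pdgfd, −1.03 for Dcn, −0.99 for Fn1, −0.85 for Colec12 and −0.48 for Olfml1. The Timp2 difference of 0.57 was then no longer called. In wounded mice the bands were close to level, with medians from −0.06 to 0.05, and the same correction gave −1.35 for Fn1, −1.13 for Colec12, −0.73 for Olfml1, −0.70 for Pdgfd and −0.66 for Dcn. The Dcn call was then lost, leaving 3 of the 7 called, beside 85 of 4762 named genes. This contrast too entered the choice of the genes.

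**Figure D3:**
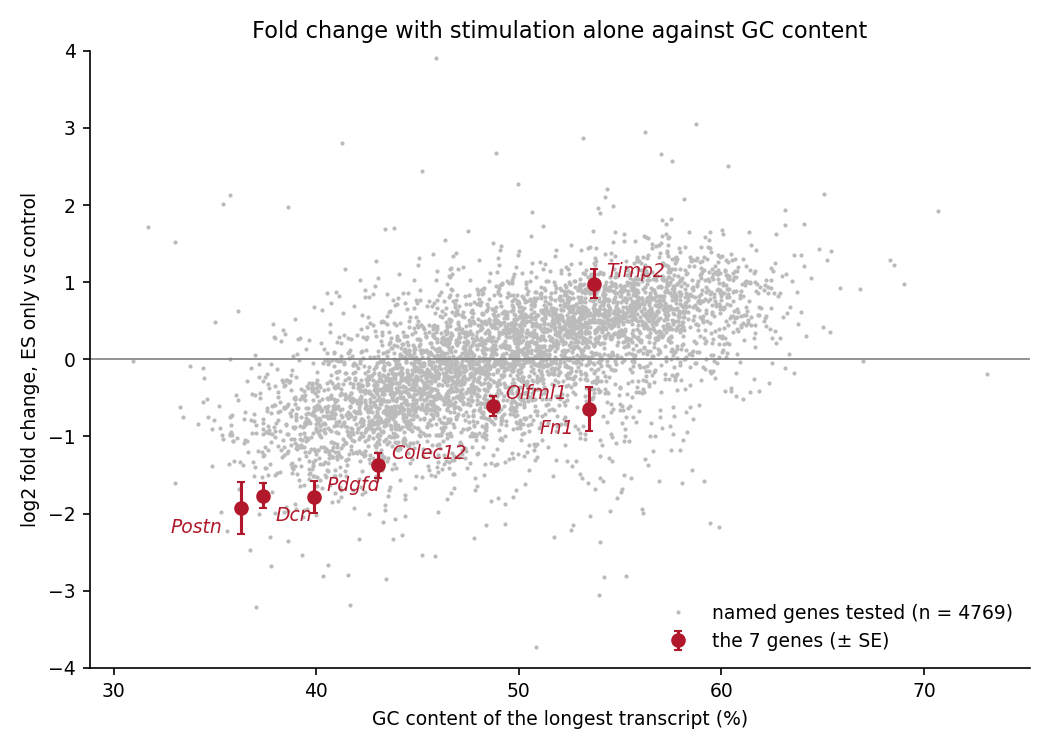
Log2 fold change of ES only against control (vertical) against the GC content in percent of the longest transcript (horizontal), with named genes in grey and the 7 genes in red with SE. Postn, Dcn, Pdgfd and Colec12 lie at the AT-rich end at −1.93 to −1.37, while Timp2 (0.98) and Fn1 (−0.64) lie apart at nearly equal GC content.

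A separate stretch of exon, counted on its own and sharing no base with the first, was measured for Olfml1 and Fn1. The second Olfml1 stretch, 449 bp, had 4.31, 7.50 and 5.44 CPM in injury + ES libraries, against 13.2, 11.2 and 10.8 CPM in injury libraries (−1.02 ± 0.27). It had 6.73, 6.07 and 6.61 CPM in ES only libraries, against 18.3, 11.8 and 10.4 CPM in controls (−1.06 ± 0.27). Both stretches of Olfml1 were therefore lower in stimulated than in unstimulated ganglia with no overlap, while the injury difference was −0.20 ± 0.26 in the second stretch and 0.43 ± 0.13 in the first. The second Fn1 stretch, 1256 bp with Apol7d exons under part of it, gave −0.80 ± 0.40 for injury + ES against injury, where the first gave −1.41. For injury against control it gave 0.17 ± 0.39, with 9.67 to 17.63 CPM in injury and 8.78 to 16.85 CPM in control libraries. The rise of 1.04 in the first stretch was thus not seen in the second.

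**Figure D4:**
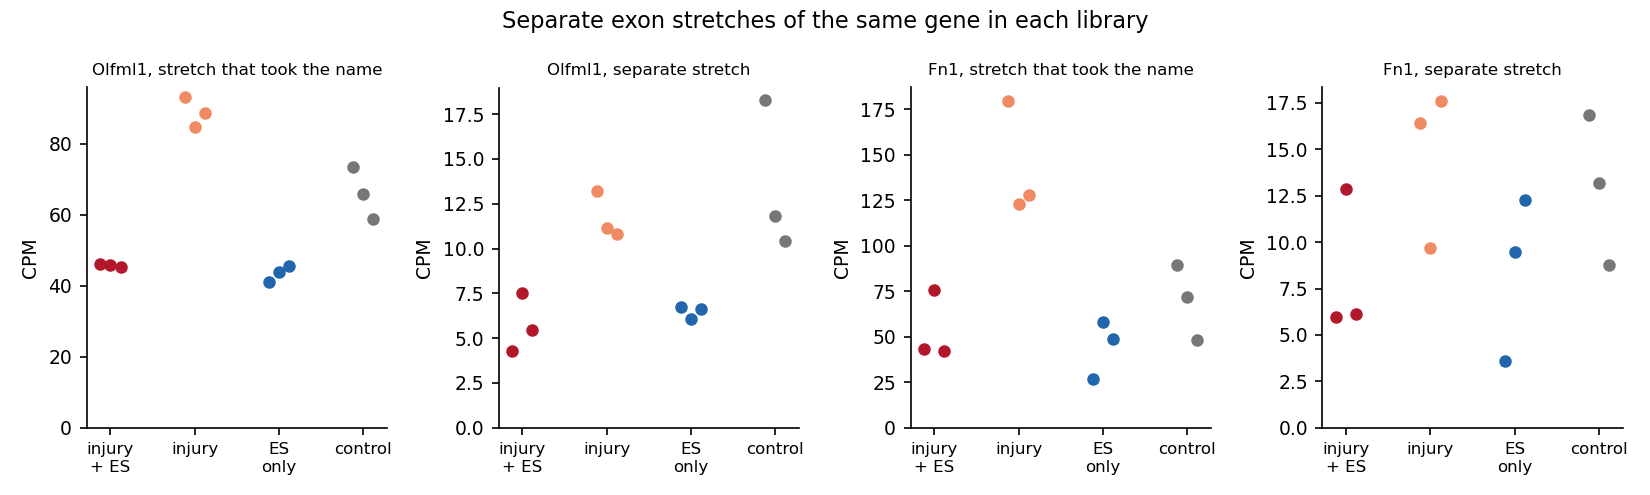
CPM (linear axes from 0) of the stretches that carry the names Olfml1 and Fn1 and of a separate exon stretch of each gene, in the libraries of the injury + ES, injury, ES only and control groups. Injury + ES libraries of both Olfml1 stretches lie below all injury libraries, at 45.4 to 46.1 CPM and 4.31 to 7.50 CPM, while the second Fn1 stretch overlaps between groups.

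The fibroblast label was checked against other fibroblast markers, of which 6 of 20 could be named and tested apart from the 7 genes. Their summed level was 1898 to 2402 CPM in injury + ES, 2804 to 3626 CPM in injury, 2021 to 2213 CPM in ES only and 1659 to 1950 CPM in control libraries. In ES only ganglia 1 of the 6 was called higher against controls and none lower by edgeR or DESeq2, with 2 at an unadjusted p under 0.05. The call was Cygb (1.32), while Col1a2 (0.02), a chain of collagen I, and Gsn (0.32), Serping1 (−0.21), Pdgfra (−0.68) and Fap (−0.83) did not pass, and the median of the 6 was −0.09. Every ES only library was above every control in the sum, in which abundant markers weigh most, whereas Dcn, Postn, Pdgfd and Colec12 were lower in every ES only library, and the 7 genes are here called by name. None of the named markers was at 0. With the wound alone 4 of the 6 markers rose and none fell, Col1a2, Cygb, Gsn and Serping1, and 2 fell in injury + ES against injury. Of all intervals, 31.0% were called with the wound alone, 29.8% with ES only and 1.54% in injury + ES against injury.

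Markers of other cells were counted beside the genes, and their part in the results was not tested. Their counts are to be read beside the shares of all intervals called. These were 31.0% for injury against control, 29.8% for ES only against control and 1.54% for injury + ES against injury. A call of 1 marker in a short list is not read as a change of that cell type. The 8 meningeal markers measured summed to 5168 to 6804 CPM in injury + ES, 21810 to 22590 CPM in injury, 2643 to 7215 CPM in ES only and 5218 to 5655 CPM in control libraries. Of these 8, 6 fell in injury + ES against injury, 3 fell in ES only against control (Dpp4, Foxp2 and Slc6a20a), and 5 rose with injury. The 7 macrophage markers summed to 99.2 to 115 CPM in injury + ES, 189 to 224 CPM in injury, 74.9 to 98.5 CPM in ES only and 122 to 140 CPM in control libraries. Of these, 4 fell in injury + ES against injury and 4 in ES only against control. Of 5 oligodendrocyte and 5 myelinating Schwann cell markers, 4 each fell in injury + ES against injury. With injury against control, all 5 oligodendrocyte (median 1.88) and all 5 myelinating Schwann cell markers (median 1.59) rose, as did 3 of 7 macrophage markers, of which 1 fell. In the same comparison 2 of 4 sensory neuron, 2 of 3 endoneurial and perineurial, 1 of 1 non-myelinating Schwann, 1 of 4 endothelial and 1 of 2 bone and cartilage markers rose, and 1 of 3 satellite glial markers rose and 2 fell. With ES only against control, 4 of 5 myelinating Schwann, 4 of 4 sensory neuron, 2 of 3 endoneurial and perineurial, 1 of 1 non-myelinating Schwann, 1 of 4 endothelial and 1 of 2 bone and cartilage markers rose, 1 of 3 satellite glial markers rose and 2 fell, and 1 of 3 skeletal muscle markers fell. Of 5 mural and 5 oligodendrocyte markers none was called there by edgeR or DESeq2, with 1 each at an unadjusted p under 0.05, and no adipocyte marker passed the filter. In whole ganglia, fewer cells of a type and less RNA per cell cannot be told apart.

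The genes that work with the 7 were counted from lists drawn up with earlier results known, and their counts are to be read beside the shares of all intervals called, 31.0% for injury against control (19.3% higher), 29.8% for ES only against control and 1.54% for injury + ES against injury. Of 5 other small leucine-rich proteoglycans tested, 3 rose with injury, namely Bgn (1.25), Fmod (1.80) and Tsku (1.43), and none was called with ES only by edgeR or DESeq2, or was at an unadjusted p under 0.05, where the median was −0.15 against 0.03 over all intervals. Biglycan (Bgn), the closest relative of decorin, averaged 274 ± 18.6 CPM in injury + ES and 499 ± 77.4 CPM in injury ganglia, a fall of −0.86 ± 0.21 (adjusted p = 0.0483), and 236 ± 39.8 CPM in ES only and 210 ± 67.3 CPM in control ganglia. With ES only, the log2 fold changes were −1.77 ± 0.17 for Dcn and 0.17 ± 0.21 for Bgn, and the difference between the genes was not tested.

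Of 17 collagens and collagen fibril partners, 6 rose and 2 fell with injury, 3 fell in injury + ES against injury, and 2 rose and 1 fell with ES only. The median log2 fold changes of this list were 0.22 with injury, −0.31 for injury + ES against injury and −0.07 with ES only. The 3 that fell were Col11a2 (−1.64), the procollagen C-proteinase Bmp1 (−0.78) and its enhancer Pcolce (−0.83), and the one lower with ES only was Col5a2 (−1.21). Of 14 partners and integrin receptors of fibronectin and periostin, 4 rose and 1 fell with injury, a share near that of all intervals, none was called by edgeR in injury + ES against injury (6 at an unadjusted p under 0.05, 1 by DESeq2), where the median was −0.48, and 2 rose and 2 fell with ES only. Itgav, the integrin alpha-v chain that binds both proteins, averaged 72.9 ± 12.5 CPM in ES only and 177 ± 5.72 CPM in control ganglia (−1.28 ± 0.22, adjusted p = 0.000602). Fbn2 fell and Fbln2 and Itga11 rose in the same comparison. Itgav was also the 1 gene of this list called lower with injury (−0.84 ± 0.22). It was lower in injury + ES than in control ganglia too (−0.88 ± 0.22), and −0.04 ± 0.22 in injury + ES against injury.

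**Figure D5:**
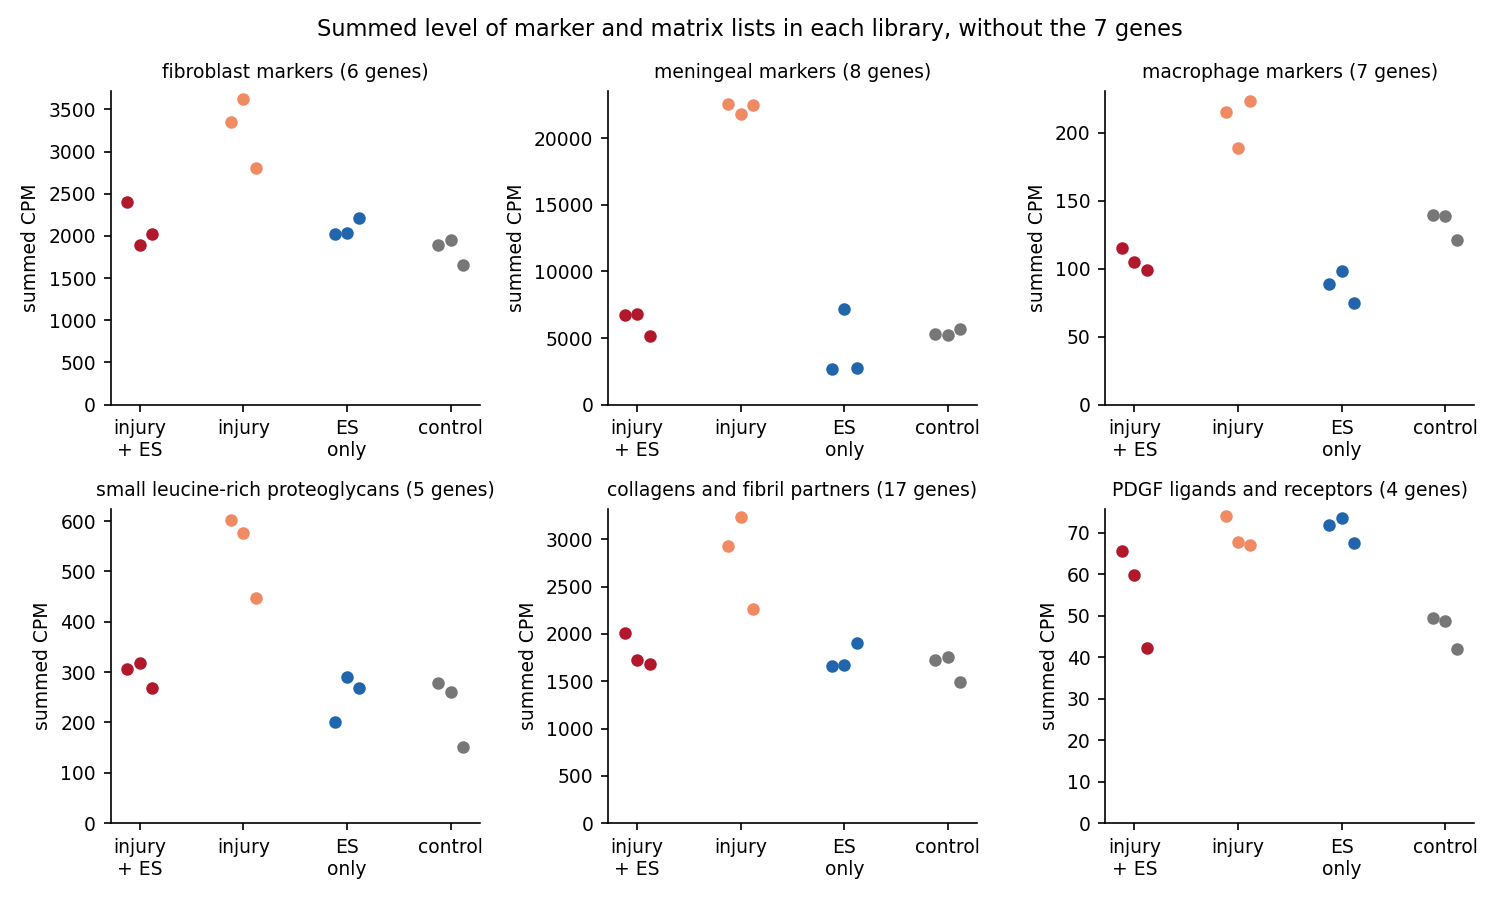
Summed CPM (linear axes from 0) of marker and matrix lists, without the 7 genes, in the libraries of the injury + ES, injury, ES only and control groups. Fibroblast, meningeal and macrophage markers and the proteoglycans are highest in the injury libraries, and the fibroblast sum in ES only libraries (2021 to 2213 CPM) lies above that in control libraries (1659 to 1950 CPM).

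Among the genes of the TIMP list, 6 proteases and inhibitors other than Timp2 were tested, and none was called with ES only by edgeR (3 at an unadjusted p under 0.05, 2 by DESeq2). Adamts2, a procollagen N-proteinase, rose with injury (1.50) and fell in injury + ES against injury, at 17.95 ± 1.34 CPM in injury + ES and 38.7 ± 7.23 CPM in injury ganglia (−1.11 ± 0.21, adjusted p = 0.0105). Of the PDGF family, Pdgfb averaged 20.0 ± 4.05 CPM in ES only and 7.90 ± 0.461 CPM in control ganglia, a rise of 1.34 ± 0.28 (adjusted p = 0.00218), and Pdgfa rose by 0.53 ± 0.17 (adjusted p = 0.0223), whereas Pdgfd was lower. Pdgfb and Pdgfa also rose with injury alone (0.99 ± 0.29 and 0.68 ± 0.17). With ES only the receptors Pdgfra (−0.68) and Pdgfrb (0.53) were not called. Of 8 genes of TGF-beta signalling, 4 rose and 1 fell with ES only, beside 18.2% of all intervals called higher and 11.7% lower. Among the 4 were Eng (1.58), Ski (0.62) and the latent TGF-beta binding protein Ltbp4 (0.57). The fall was that of the receptor Tgfbr1 (−0.81 ± 0.14, adjusted p = 0.000695, edgeR quasi-likelihood test). Ltbp4 also rose with injury (1.35 ± 0.16) and fell in injury + ES against injury (−0.88 ± 0.16, adjusted p = 0.00815, same test). Of the olfactomedin family, Olfml2b and Olfml3 were tested, and edgeR and DESeq2 called 0 of them in the 6 comparisons, with 0 at an unadjusted p under 0.05, and no other collectin or class A scavenger receptor passed the filter.

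Among themselves, the genes were most alike in Colec12 and Pdgfd, whose centred log2 CPM differed by 0.20 on average over the 12 libraries, followed by Dcn and Colec12 (0.25), Fn1 and Colec12 (0.30), Colec12 and Olfml1 (0.30) and Dcn and Pdgfd (0.30). Timp2 was far from all the others, at 0.68 to 1.04. Over 4173 candidate genes, the profiles most like Dcn were those of the copper-carrying oxidase Cp (0.20), of Foxp2 (0.22), which is on the meningeal list, and of the ribosomal gene Rps27a (0.26). Fn1 was closest to the sulfate transporter Slc26a2 (0.21), to Foxc1 (0.21), also on the meningeal list, and to the mast cell protease gene Mcpt4 (0.21). Colec12 was closest to Slc26a2 (0.20), Pon3 (0.20) and Foxp2 (0.22). Olfml1 lay nearest the myelin gene Mal (0.12), then Lair1 (0.14) and Cmbl (0.14), and Pdgfd nearest the chemokine receptor Ccr2 (0.26), mt-Nd3 (0.28) and Gpm6a (0.28). Timp2 lay close to Ptprn (0.07), a protein of neuronal dense-core vesicles, and to Peli3 (0.07), and Postn was nearest to Zfp595 (0.24), Cse1l (0.28) and the transferrin receptor Tfrc (0.30).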

How the data were processed

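Poly(A) libraries of 150 bp paired reads were sequenced, per the labels' protocols. The deposited values are counts per gene interval made by the authors with featureCounts 2.0.6 on Ensembl release 110 intervals, unstranded, counting reads and not fragments and giving a read to every interval it overlaps, per the file headers; FastQC, Salmon 1.10.2 and DESeq2 are listed per the submitters' processing notes. The aligner, its version and its build: not given in the sources used here. Read positions fitted GRCm38, so an interval took the name of the only GENCODE M21 gene with at least 100 exon bases under it, the interval with most exon bases serving for the gene. Of 56941 identifiers, 9969 genes were named.

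The counts were tested with edgeR 4.0.16 (R 4.3.3) in 1 fit over 12 libraries with 1 mean per group, TMM scaling, filterByExpr and the robust quasi-likelihood F test, adjusted by Benjamini-Hochberg over 13053 intervals and called at an adjusted p under 0.05. The biological coefficient of variation was 0.235, and counting error at 7952798 to 10751547 reads per library bears mainly on Postn. Fits were tested on simulated data. Alternatives were DESeq2 1.42.0, no filter, only the groups compared, a replicate block, summed intervals, a removed GC and length trend, and 12 fits without 1 library each. The 7 genes and all lists were chosen with earlier results of these data known. Genes named were the 7, the 3 with the most similar profile for each (smallest mean absolute difference in centred log2 CPM, mean of at least 1 CPM; 1 of them is not reported here), and up to 4 of each list with the smallest p; other list genes named were chosen after their values were seen. Motif matches used the 250 bases before RefSeq starts.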

Additional observations from a re-analysis of the deposited data

Results flagged for a closer look

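The change with stimulation in injured minus that in uninjured mice, an interaction in the edgeR fit, was called for 4 of the 7 genes, beside 19.2% of all intervals. With the GC content and length trend removed 0 of the 7 were called, and with a replicate block 2. The interaction is built from the contrasts by which the genes were chosen, so the values describe these libraries and are no independent test. It was 2.04 ± 0.46 (log2, SE) for Postn, which had fold changes of 0.11 in injured and −1.93 in uninjured mice. It was 0.96 ± 0.23 for Dcn, with −0.81 in injured and −1.77 in uninjured mice, and 0.95 ± 0.29 for Pdgfd, with −0.83 in injured and −1.78 in uninjured mice. For Timp2 it was −0.77 ± 0.26, with 0.22 in injured and 0.98 in uninjured mice.

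The median interaction of named genes moved with GC content in the same sense, at 0.84 under 40% GC, where Postn, Dcn and Pdgfd lie, and −0.41 between 50 and 55% GC, where Timp2 lies. Fn1, which lies between 50 and 55% GC too, had an interaction of −0.77 ± 0.40 that was not called.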

How the results depend on the processing

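Of the 6 counts of called genes, that for ES only against control (6 of 7) was 6 or 7 under every alternative run. The genes were chosen by this contrast in these same libraries, so nothing is read from the steadiness of its count. Of all intervals 29.8% were called in it in the main fit, and 358 of 4762 named genes with the trend removed. With the GC content and length trend removed, the counts were 2 for injury against control (4 in the report), 2 for injury + ES against control (5), 2 for injury + ES against ES only (4) and 0 for the interaction (4, with 1 at an unadjusted p under 0.05 and 4 by DESeq2). In the same order, 782, 368, 34 and 158 of 4762 named genes were called. With only the groups compared in the fit, the counts of the 7 were 3 for injury + ES against control and 0 for injury + ES against ES only, with 4 at an unadjusted p under 0.05 and 4 by DESeq2. Leaving out 1 library at a time gave 1 to 5 calls for injury against control, 0 to 5 for injury + ES against injury, 6 to 7 for ES only against control, 0 to 6 for injury + ES against control, 1 to 4 for injury + ES against ES only and 2 to 4 for the interaction. For injury against control the count was 1 without control replicate 3 or injury replicate 1, and 2 without injury replicate 3, injury + ES replicate 3, ES only replicate 1 or ES only replicate 2. For the interaction it was 2 without control replicate 1 or 3, injury replicate 2 or 3, or ES only replicate 1.

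Signs turned only for fold changes that were not called. Pdgfd in injury against control was −0.0089 with only the groups compared (0.07 in the report) and −0.0563 to 0.168 with 1 library left out. Timp2 in injury + ES against ES only was 0.0115 with only the groups compared, 0.26 with the trend removed, 0.0266 with named genes only, an alternative chosen after seeing the data, and −0.19 to 0.19 with 1 library left out. With the trend removed Olfml1 in the same comparison was −0.0428 and the Colec12 interaction −0.28. Postn in injury + ES against injury ran from −0.0618 to 0.295 and Fn1 in injury + ES against ES only from −0.0302 to 0.543 with 1 library left out. The cause was not tested.

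The groups share replicate numbers, but of 18 same-numbered pairs 1 had a correlation of deviations over 0.1 (range −0.26 to 0.20). Pairing by number was therefore not seen, although 3 libraries a group are too few to exclude it. Between differently numbered libraries the correlation was 0.438 for injury + ES replicate 2 with ES only replicate 3. It was −0.389 for injury + ES replicate 1 with ES only replicate 3. With a replicate block the interaction called 2 of the 7, Dcn and Postn, and the other counts were 3 for injury against control, 4 for injury + ES against injury, 6 for ES only against control, 5 for injury + ES against control and 3 for injury + ES against ES only. DESeq2's scaling moved the median of all intervals by 0.08 at most. Postn, with 162 reads in the ES only group, is limited by depth, and 5 of the 7 genes by the part of their exons that was counted.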

Other observations

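Read by the symbols in the deposited tables, the 7 genes would give other values. The intervals deposited under the symbols Dcn and Postn averaged 0.102 and 0.160 CPM over the 12 libraries and had no GRCm38 gene under them, and that under Olfml1, over Nlrp14, had 0 reads. The interval deposited as Timp2 lay over Cyth1 and averaged 14.8 CPM, while the one deposited as Fn1 lay over exons of Fn1 and Apol7d and averaged 11.1 CPM. The interval over Dcn exons was deposited as Epyc, that over Postn as Gm5641, over Fn1 as Atic, over Timp2 as Cant1 and over Olfml1 as Olfr477. Colec12 and Pdgfd lay under their own symbols.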
